A study of Mus musculus with 32 samples.

Results

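The haem synthesis and breakdown enzymes measured here are 8 genes, Alas1, Alad, Uros, Urod, Cpox, Ppox, Fech and Hmox1, of 50686 Ensembl genes in the count table. They were taken by symbol alone, whatever their values, and each was found once. The RNA came from iBAT, the interscapular depot of brown fat, which burns fuel to make heat, of male C57BL/6J mice aged 10 weeks. The mice were not fasted, ate chow and lived under a 12 h light and 12 h dark cycle at mildly cool temperature. Tissue was taken at 8 time points, 3 h apart, given as Zeitgeber time (ZT), the hours since lights on, each with 4 mice, and every mouse gave 1 library, 32 in all. The groups ZT0, ZT3, ZT6 and ZT9 fell in the light, resting phase, and ZT12, ZT15, ZT18 and ZT21 in the dark, active phase, with ZT0 and ZT12 at the changes of light. The mice carried no transgene or treatment, and time of day was what set the groups apart.

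Haem is an iron-bound porphyrin that serves as the oxygen- or electron-carrying group of haemoglobin, cytochromes and many oxidases. Its synthesis starts in mitochondria with 5-aminolevulinate synthase, encoded by Alas1 in most tissues and by Alas2 in red cell precursors, goes on in the cytosol in steps that include Alad, Uros and Urod, and returns to mitochondria for Cpox, Ppox and Fech, which inserts iron. Alas1 is the rate-limiting step and is repressed by haem. Haem oxygenase, encoded by the inducible Hmox1 and the constitutive Hmox2, opens the ring and frees iron, carbon monoxide and biliverdin, which biliverdin reductase turns into bilirubin. Brown fat is dense in mitochondria, and its respiratory cytochromes need haem.

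All 8 enzymes were counted in every library. In the mouse assembly GRCm38 (GENCODE annotation) Alas1 (ENSMUSG00000032786) lies on chromosome 9 from 106233455 to 106248654, Alad (ENSMUSG00000028393) on chromosome 4 from 62509169 to 62519918, and Uros (ENSMUSG00000030979) on chromosome 7 from 133686243 to 133710072. Urod (ENSMUSG00000028684) lies on chromosome 4 from 116989965 to 116994413, Cpox (ENSMUSG00000022742) on chromosome 16 from 58670292 to 58717636, and Ppox (ENSMUSG00000062729) on chromosome 1 from 171275990 to 171281186. Hmox1 (ENSMUSG00000005413) lies on chromosome 8 from 75093621 to 75100589, and Fech is ENSMUSG00000024588. Cpox and Hmox1 are on the plus strand and the others on the minus strand. Exons of 3 members overlap a gene on the opposite strand, and whether counting used the strand is not stated. B4galt3 covers 17.5% of the exon bases of Ppox, the antisense transcript 4930500F10Rik covers 7.53% of those of Alas1, and Gpr15 covers 3.06% of those of Cpox. The last 2 overlapping genes held 128 and 40 counts over all libraries and B4galt3 held 9747. How many reads of the 3 members were lost to or gained from these overlaps was not tested.

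RefSeq start-site windows (GRCm38.p6, 250 bases before to 50 after a start) were supplied for 6 of the 8 members, as 9 windows, and were searched for 7 short motifs on both strands. The stretches with a match in Alas1, Alad, Urod and Uros are printed because they hold the letters bound by NRF1, a regulator of Alas1 among the genes followed below, and by clock factors at E-boxes. Each is 30 bases, 5′ to 3′ on the gene's strand, with the match in capitals.
Alas1 NRF1 core, chr9:106247906-106247935: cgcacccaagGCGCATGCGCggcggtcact
Alad E-box of the downstream start, chr4:62519920-62519949: ccgccccgccccCACGTGggcttgcgcttt
Alad E-box of the upstream start, chr4:62520151-62520180: gctccgaatgccCACGTGgaccccctcggg
Urod E-box, chr4:116994445-116994474: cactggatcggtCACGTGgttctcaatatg
Uros E-box, chr7:133709516-133709545: CACGTGtgctttctcacctcgtccacgatt
The NRF1 core searched was GCGCATGCG, which the Alas1 stretch holds on both strands, overlapping by all but 1 letter at each end. The same site stood 195 bases before 1 annotated Alas1 start and 29 bases after the other. Of 32544 distinct windows of that length, 1.76% held the NRF1 core. The E-box searched was CACGTG, held by 7.17% of windows. It stood 28 and 105 bases before the start in the Alad windows, 49 before the Urod start and at the far end, 250 bases before, of 1 Uros window. The Cpox window held a GATA box (AGATAA, in 11.2% of windows). No match to the other motifs, a ROR element core (AGGTCA, 16.2%), an antioxidant response element (TGACNNNGC, 12.4%), a cyclic AMP element core (TGACGT, 7.55%) and a D-box (TTATGTAA, 0.931%), was found in these 9 windows, and the windows of Ppox and of the other Uros start held none of the 7. These are matches of letters only.

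Libraries held 16300770 to 18254659 counts. Levels are given as CPM, which puts all libraries on the same total, after TMM scaling, and precision at this depth ranged from 77 counts for Hmox1 in its lowest library to 11633 for Alas1 in its highest. The brown adipocyte markers Ucp1 (955 to 4318 CPM) and Cidea (1529 to 2132 CPM) were high in every library, as were Adipoq and Plin1 (at least 627 and 862 CPM), while Dio2 (7.49 to 108 CPM) and Elovl3 (0.420 to 69.4 CPM) were low and varied widely between mice. Skeletal muscle transcripts varied between mice: Acta1, the muscle actin, ran from 0.167 to 1360 CPM and was above 500 CPM in 7 libraries, of which 2 were from ZT15. ZT9 replicate 3 held the highest macrophage marker sum, 248 CPM against a median of 76.1, and the highest sum of globin and red cell markers, 1139 CPM against 515. The 4 lymphoid markers stayed under 1 CPM on average. Lane 2 of the sequencer carried ZT0, ZT3 and ZT6, lane 3 carried ZT9, ZT12 and ZT15, and lane 4 carried ZT18 and ZT21, so that differences between time points of different lanes cannot be told apart from lane. In bulk tissue, a change in the number of cells of a type and in RNA per cell cannot be told apart either.

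Per kb of exon, Alas1 was the most abundant of the 8 enzymes and Cpox the least. Mean levels were 77.2 CPM per kb for Alas1, 25.8 for Urod, 25.7 for Alad, 8.79 for Fech, 7.98 for Ppox, 7.53 for Uros, 4.69 for Hmox1 and 1.32 for Cpox. Alas1 was above Urod in 31 of 32 mice, by 3.00-fold on the means. Urod and Alad could not be ordered, with Urod higher in 13 of 32 mice. Alad was above Fech in all 32 mice, by 2.93-fold and with no overlap of the ranges. That order rests on the exon lengths, 1871 bases for Alad and 13838 for Fech, each the union over all annotated transcripts. In CPM without length Fech was the higher, at a mean of 121.6 against 48.15 for Alad, and Cpox (8.764) lay above Hmox1 (8.208). Which transcripts of each gene were present was not tested. Fech was above Ppox in 21 of 32 mice and Ppox above Uros in 19 of 32, so these neighbours did not separate beyond their spread. Uros was above Hmox1 in 31 of 32 mice and Hmox1 above Cpox in all 32, by 3.56-fold.

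**Figure D1:**
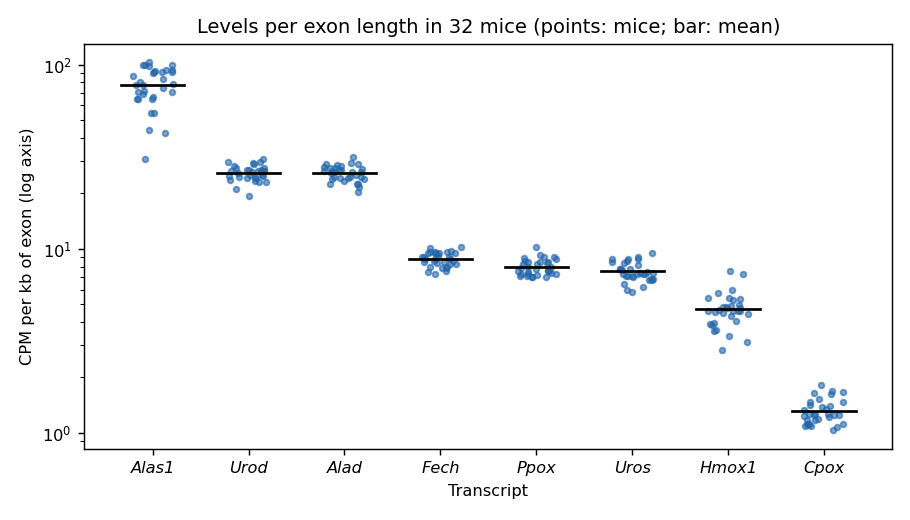
Level of each enzyme transcript in CPM per kb of exon on a log axis, with 1 point per mouse (n = 32) and a bar at the mean. Alas1 lies highest, near 77.2, and Cpox lowest, near 1.32, while Urod and Alad overlap almost fully and Fech, Ppox and Uros form a group near 8.

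Across the day 3 of the 8 enzymes, Alas1, Ppox and Hmox1, differed between time points at an adjusted p under 0.05 (edgeR's quasi-likelihood test with Benjamini-Hochberg adjustment over 15505 tested genes), against 39.8% of all tested genes. The same 3 had a 24 h cosine component, against 36.1% of genes. The members' share was thus near that of genes at large in both tests. With lane as a further term none of the 8 kept a cosine component in edgeR, against 17.2% of genes. None had an unadjusted p under 0.05 in that edgeR fit (lowest 0.0612). DESeq2 with lane called none of the 8 either, against 3029 of 15505 genes. By JTK, a rank test of oscillation with an exact null, 2 of the 8 passed P under 0.05 (Ppox and Alad), against 36.4% of genes, and 1 (Ppox) after adjustment, against 27.1%. The median cosine amplitude of the 8 was 0.0829 on the log2 scale, beside 0.139 over all tested genes. The counts rested in part on single libraries. Without ZT15 replicate 1, which held 1218 CPM of Acta1, 5 of 8 passed the time-point test, with Alad and Cpox added, and 5 of 8 the cosine test, with Alad and Fech added. The share of all genes called without that library is not given here, so these counts cannot be set against it. Without the 7 libraries above 500 CPM of Acta1 only Alas1 passed the time-point test, while Ppox (0.0695) and Hmox1 (0.0773) did not. Calls over all genes fell as well, to 3861 of 15778 in the time-point test and 4804 in the cosine test. With all libraries they were 6173 and 5602 of 15505. In the cosine test without them Alad (0.0294) and Fech (0.0261) passed and Alas1 (0.0893) did not (edgeR, adjusted p). The part of muscle tissue in these counts was not tested.

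**Figure D2:**
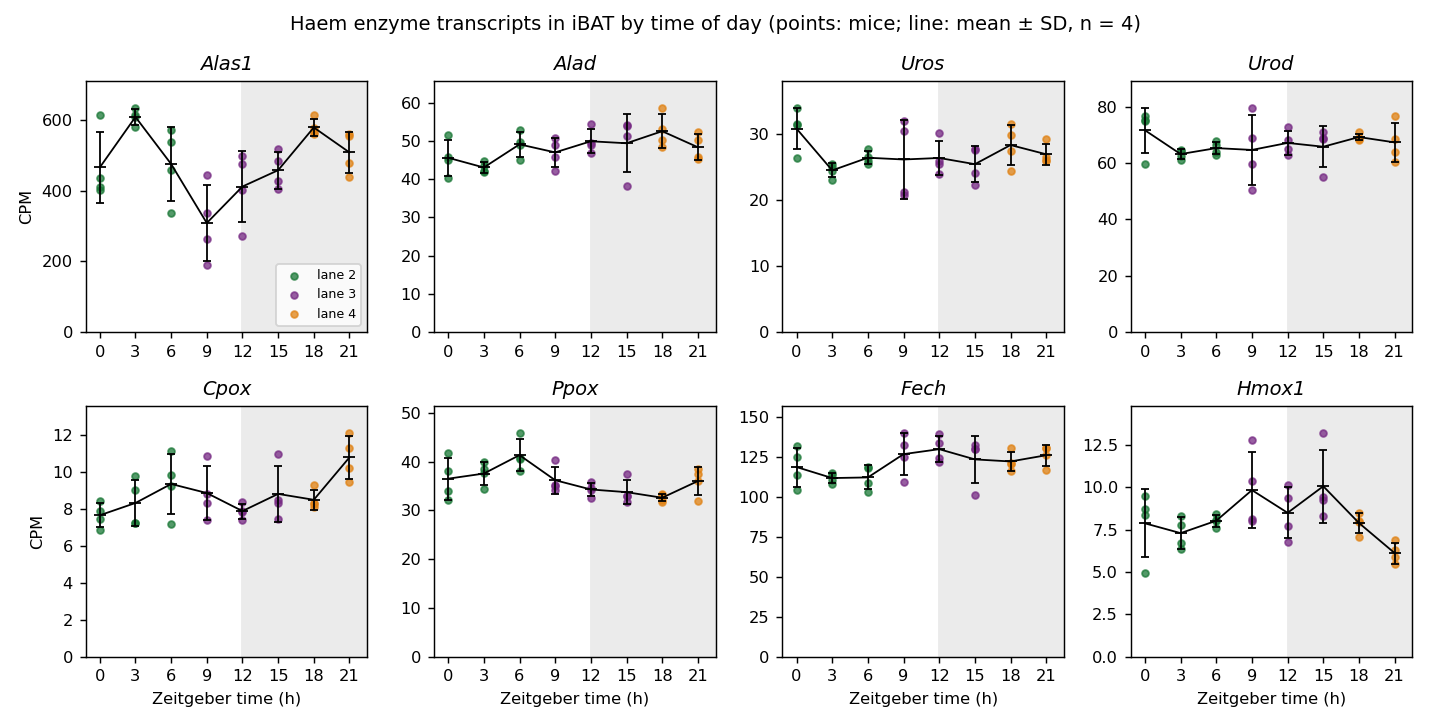
CPM of each enzyme transcript by Zeitgeber time, with 1 point per mouse coloured by sequencing lane, the mean and the SD (n = 4) in black and the dark phase shaded. Alas1 is lowest at ZT9 and high at ZT3 and ZT18, Ppox is highest at ZT6, Cpox is highest and Hmox1 lowest at ZT21, and Urod has the narrowest range of means on the log2 scale.

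Alas1, the gate of the pathway, had the widest range of the 8. Its 4 mice held 411, 436, 403 and 613 CPM at ZT0, 613, 634, 580 and 607 CPM at ZT3, and 571, 537, 458 and 336 CPM at ZT6. At ZT9 they held 189, 264, 444 and 337 CPM, at ZT12 401, 273, 498 and 475 CPM, and at ZT15 517, 427, 404 and 485 CPM. At ZT18 they held 577, 566, 559 and 613 CPM and at ZT21 440, 560, 554 and 479 CPM. The time points with the highest means, ZT3 (608 ± 22.3 CPM, SD, n = 4) and ZT18 (579 ± 24.0), were also the tightest, with coefficients of variation of 3.67% and 4.14%, while mice at ZT9 (309 ± 109) spread by 35.2%. Between ZT9 and ZT3 the means stood 1.97-fold apart. The adjusted p was 0.00764 between time points (edgeR), and it stayed under 0.05 in all 32 fits that left out 1 library, with a highest value of 0.0255. The fitted 24 h cosine had an amplitude of 0.30 ± 0.09 (SE) on the log2 scale, larger than in 82.5% of tested genes, and a peak at ZT 22.1 ± 1.1 h. Of the 3 endothelial markers, Kdr and Cdh5 passed the time-point test as well (edgeR, adjusted p = 1.08e-06 and 0.0222) and Pecam1 did not (0.0553). Their summed level had its highest mean at ZT3 too, 735 CPM (697 to 781), and its lowest at ZT12, 525 CPM (514 to 553), with 595 CPM at ZT9 (528 to 642), and none was at 0 in any library. Of the brown adipocyte markers, Ucp1 and Plin1 passed that test (edgeR, adjusted p = 0.0170 and 0.0292). The part of endothelial cells or adipocytes in the Alas1 differences was not tested.

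The means of Alas1 had a high point in the light at ZT3 and another in the dark at ZT18. The edgeR adjusted p of the cosine was 0.0344, and it rose above 0.05 when ZT0 replicate 4 (0.0544), ZT9 replicate 1 (0.0534), ZT9 replicate 2 (0.0676), ZT9 replicate 4 (0.0610) or ZT12 replicate 2 (0.0665) was left out, and with library size alone as the scaling (0.0674). The exact test of JTK gave P = 0.0713, and P under 0.05 without ZT0 replicate 1 (0.0312), ZT0 replicate 2 (0.0356), ZT0 replicate 3 (0.0273), ZT12 replicate 3 (0.0426) or ZT21 replicate 1 (0.0356). When 12 h terms were added to the 24 h terms, those of Alas1 had an unadjusted p of 0.00798, the smallest of the 8, and an edgeR adjusted p of 0.141. Within lanes the adjusted p (edgeR) was 0.178 in lane 2, 0.410 in lane 3 and 0.247 in lane 4. In lane 2 it was 0.0380 without ZT0 replicate 4, whose 613 CPM stood apart from the other 3 mice of its time.

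Contrasts of time points 12 h apart called 3 of the 8 members in at least 1 of 4 contrasts, against 38.6% of tested genes. All 4 contrasts cross lanes. Alas1 was higher at ZT21 (508 ± 58.7 CPM, SD, n = 4) than at ZT9 (309 ± 109), by 0.72 ± 0.20 (SE) on the log2 scale (edgeR, adjusted p = 0.0188), beside 9.62% of genes called in that contrast, and 1 mouse of ZT9 reached into the range of ZT21. The call was lost without ZT9 replicate 1 (0.54, adjusted p = 0.0617), ZT9 replicate 2 (0.0579), ZT21 replicate 2 (0.0550) or ZT21 replicate 3 (0.0510). Fitted on those 8 libraries alone, the edgeR adjusted p was 0.104. With each contrast fitted on its own libraries, 2 members, Alas1 and Ppox, were called in at least 1 of the 4. Alas1 thus passed there in a contrast other than ZT21 against ZT9. Alas1 at ZT15 lay below ZT3 in every mouse (458 ± 51.9 against 608 ± 22.3 CPM). In the fit of all libraries that log2 difference of -0.41 ± 0.19 did not pass (edgeR, adjusted p = 0.167).

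Alad makes porphobilinogen from 5-aminolevulinate. Its mean ran from 43.1 ± 1.35 CPM at ZT3 to 52.6 ± 4.50 at ZT18 (SD, n = 4), 1.22-fold apart. All 4 mice at ZT3 held 42.0 to 44.9 CPM and all 4 at ZT18 held 48.4 to 58.7 CPM. The exact test of JTK gave P = 0.0209 (0.0688 adjusted), while edgeR gave adjusted p = 0.189 between time points and 0.0825 for the cosine, which peaked at ZT 15.2 ± 1.4 h with an amplitude of 0.09 ± 0.03 (SE). ZT15 replicate 1 held the lowest Alad of all libraries, 38.2 CPM, with the rest of ZT15 at 51.3 to 54.2 CPM. With library size alone as the scaling the cosine of Alad passed (edgeR, adjusted p = 0.0429). Without ZT15 replicate 1 the edgeR adjusted p was 0.0271 between time points, 0.00739 for the cosine and 0.0448 for the cosine beside lane, and without ZT6 replicate 2 it was 0.0467 for the cosine. The JTK call was lost without any 1 of the 4 mice of ZT3 (0.0686, 0.0540, 0.0686 and 0.0609 for replicates 1 to 4), ZT15 replicate 2 (0.0609) or ZT15 replicate 3 (0.0686).

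Uros and Urod close the porphyrin ring and trim its side chains. Uros held 31.6, 34.0, 31.4 and 26.5 CPM at ZT0 and 25.1, 23.1, 25.5 and 24.5 CPM at ZT3, with no overlap between the time points. The log2 difference of ZT3 against ZT0, both on lane 2, was -0.33 ± 0.11 (SE, edgeR adjusted p = 0.0494), beside 13.8% of genes called in that step. It was the only call among the 8 enzymes in 5 steps within lanes (1 of 8, against 17.9% of genes called in at least 1 of the 5 steps), and lay just inside the threshold. It was kept in 9 of the 32 fits that left out 1 library, those without ZT0 replicate 4, any mouse of ZT9, ZT12 replicate 1, ZT15 replicate 1, ZT18 replicate 1 or ZT18 replicate 3, and the edgeR adjusted p ran from 0.0186 to 0.138. With DESeq2 size factors, library size alone, no filter, mitochondrially encoded genes left out or the 8 libraries alone it ran from 0.0507 to 0.0840. Without the libraries above 500 CPM of Acta1 it was 0.247, with a log2 difference of -0.29. Within lane 2 as a whole, Uros had an edgeR adjusted p of 0.0297 (12.7% of genes called). That value rose above 0.05 with library size alone (0.0681), no filter (0.0595) or a block for replicate number (0.0523). It also did so without the libraries above 500 CPM of Acta1 (0.165), and without ZT0 replicate 1 (0.0787), ZT0 replicate 2 (0.0804), ZT0 replicate 3 (0.0866), ZT3 replicate 2 (0.0698), ZT3 replicate 4 (0.0551) or ZT6 replicate 3 (0.0522). No member passed within lane 3 (1.75% of genes called, 0 members at an unadjusted p under 0.05) or lane 4 (4.06%, 3 members at an unadjusted p under 0.05), and over all time points Uros had an adjusted p of 0.244.

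Urod was the steadiest of the 8 over the day. Its means lay between 63.2 ± 1.69 CPM at ZT3 and 71.6 ± 7.97 CPM at ZT0 (SD, n = 4), and the range of its time-point means, 0.17 on the log2 scale, was wider than in only 4.36% of tested genes. The edgeR adjusted p was 0.751 between time points and 0.501 for the cosine, and within lane 2 it was 0.231, or 0.0187 without ZT0 replicate 4. The lowest and highest of all 32 mice were both from ZT9, at 50.4 and 79.5 CPM, so that mice of 1 time point differed more than the time points did.

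Cpox and Ppox carry out the oxidations that lead to protoporphyrin. Cpox, the scarcest of the 8 per length, held 12.1, 11.3, 9.46 and 10.2 CPM at ZT21 and 8.32, 9.27, 8.12 and 8.24 CPM at ZT18, with no overlap. That step within lane 4 had a log2 difference of 0.34 ± 0.13 (SE) and did not pass (edgeR, adjusted p = 0.181). Between time points Cpox missed the threshold (edgeR, adjusted p = 0.0585). It passed without ZT3 replicate 2 (0.0414), ZT6 replicate 4 (0.0231), ZT9 replicate 1 (0.0356), ZT9 replicate 3 (0.0442) or ZT15 replicate 1 (0.0294), and in DESeq2 (0.0421). Its 24 h cosine was small, with an amplitude of 0.04 ± 0.06.

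Ppox had the clearest daily cosine of the 8, although a small one. Its mice held 38.0, 40.8, 40.6 and 46.0 CPM at ZT6 and 33.1, 33.3, 32.2 and 31.8 CPM at ZT18, with no overlap. The mean thus fell by 0.34 ± 0.08 (SE) on the log2 scale from ZT6 (41.3 ± 3.33 CPM) to ZT18 (32.6 ± 0.717), with an edgeR adjusted p of 0.00308, beside 16.9% of genes called in that contrast. It was called in all 32 fits without 1 library, at adjusted p up to 0.0156. The percentage of counts from mitochondrially encoded genes differed between these mice too. It was 22.6%, 22.6%, 24.3% and 27.9% at ZT6 and 18.5%, 18.7%, 20.5% and 20.7% at ZT18, in replicate order. Over the 32 libraries it had r = 0.57 with Ppox. Its part in the Ppox difference was not tested. The cosine peaked at ZT 4.5 ± 0.8 h with an amplitude of 0.12 ± 0.03 (SE), a 1.18-fold change from trough to peak, larger than in 43.9% of tested genes. Its adjusted p was 0.00308 by edgeR and 0.00369 by JTK.

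The time-point test of Ppox gave an edgeR adjusted p of 0.0197, and it was lost without ZT6 replicate 4 (0.0645), the mouse with the highest Ppox, and with library size alone as the scaling (0.204). The exact test of JTK with that scaling gave P = 0.0502. Beside lane the adjusted p of the cosine was 0.186, and the time-point test gave 0.315, 0.720 and 0.255 within lanes 2, 3 and 4 (edgeR). B4galt3, which overlaps Ppox on the other strand and encodes a galactosyltransferase, passed the time-point test too (edgeR, adjusted p = 0.00574). Its mean was 17.5 CPM, its cosine peaked at ZT 3.4, and its log2 CPM had r = 0.52 with that of Ppox over the 32 libraries, which share depth and scaling. The part of shared reads in the Ppox values was not tested.

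Fech inserts iron into protoporphyrin. Its means ran from 112 ± 3.18 CPM at ZT3 to 130 ± 8.18 at ZT12 (SD, n = 4), 1.16-fold apart. No edgeR test called it, with adjusted p = 0.192 between time points and 0.0917 for the cosine, which peaked at ZT 14.9 ± 1.4 h. Without ZT0 replicate 3 the cosine gave 0.0499. ZT15 replicate 1 held 101 CPM, the lowest of all libraries, with the rest of ZT15 at 130 to 133 CPM. Without that library the cosine gave 0.0144 and the exact test of JTK gave P = 0.0149 in place of 0.124. With library size alone as the scaling, Fech passed the time-point test (0.0204), the cosine (0.00503) and the exact test of JTK (P = 0.000603).

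Hmox1, the inducible enzyme of haem breakdown, was low in level and rose and fell over the day. Its mice held 4.94, 8.71, 9.47 and 8.40 CPM at ZT0, 7.80, 8.34, 6.73 and 6.35 CPM at ZT3, and 7.58, 8.46, 8.08 and 8.02 CPM at ZT6. They held 12.8, 7.99, 10.4 and 8.16 CPM at ZT9, 9.37, 10.1, 6.80 and 7.73 CPM at ZT12, and 13.2, 8.33, 9.44 and 9.27 CPM at ZT15. At ZT18 they held 8.04, 7.95, 7.10 and 8.52 CPM and at ZT21 6.29, 5.45, 6.90 and 5.86 CPM. Every mouse of ZT21 lay below every mouse of ZT6, ZT9, ZT15 and ZT18, and 1 mouse of ZT0 was lower still. From ZT9 (9.84 ± 2.27 CPM) to ZT21 (6.13 ± 0.619; SD, n = 4) Hmox1 fell by 0.68 ± 0.17 (SE) on the log2 scale (edgeR, adjusted p = 0.0119). Without ZT9 replicate 1 the log2 difference was -0.53 (adjusted p = 0.0509), and on those 8 libraries alone the adjusted p was 0.0512. In the same contrast Alas1 was higher, as given above.

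The edgeR adjusted p of Hmox1 was 0.0249 between time points and 0.0190 for the cosine, which peaked at ZT 11.3 ± 1.1 h with an amplitude of 0.23 ± 0.07 (SE). The time-point call was lost without ZT21 replicate 2 (0.0605) or ZT21 replicate 4 (0.0536), and the cosine call was kept in all 32 fits. The exact test of JTK gave P = 0.0713, and P under 0.05 without ZT0 replicate 2 (0.0312), ZT0 replicate 3 (0.0209), ZT0 replicate 4 (0.0404), ZT3 replicate 2 (0.0404), ZT9 replicate 2 (0.0497), ZT12 replicate 3 (0.0144) or ZT12 replicate 4 (0.0219). When 12 h terms were added, the 24 h and 12 h terms of Hmox1 tested together had an edgeR adjusted p of 0.0563. The 12 h terms by themselves had an unadjusted p of 0.549 (edgeR). Within lanes the time-point test gave an adjusted p of 0.799, 0.735 and 0.0890 for lanes 2, 3 and 4, and the cosine beside lane gave 0.611 (edgeR). The step from ZT18 to ZT21 in lane 4 gave a log2 difference of -0.37 ± 0.17 with no overlap (edgeR, adjusted p = 0.312).

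**Figure D3:**
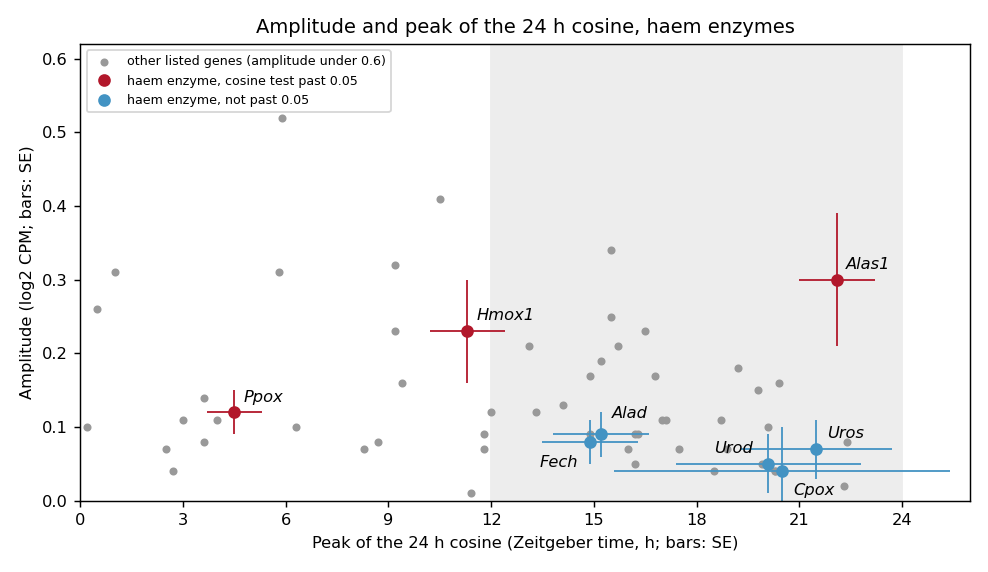
Peak time of the fitted 24 h cosine in Zeitgeber hours against its amplitude on the log2 CPM scale, with SE bars for the 8 enzymes (red where the cosine passed an edgeR adjusted p of 0.05, blue otherwise), grey points for the other listed genes (Nr1d1, Npas2 and Per2 lie above the axis) and the dark phase shaded. Ppox peaks at ZT 4.5, Hmox1 at ZT 11.3 and Alas1 at ZT 22.1, and the amplitudes of the other 5 enzymes are 0.09 or less.

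None of Alas2, Hmox2, Blvra and Blvrb, which encode other enzymes of haem synthesis and breakdown, passed the time-point, cosine or JTK test (edgeR and the exact test of JTK). These tests called 39.8%, 36.1% and 36.4% of all tested genes, and 4 genes are few to set beside those shares. None of the 4 had an unadjusted p under 0.05 in them (lowest edgeR adjusted p of the time-point test 0.104, for Alas2). Hmox2 ranged 1.13-fold between its lowest and highest means, against 1.64-fold for Hmox1. Alas2, the red cell form, was at 6.18 to 23.4 CPM and highest in ZT9 replicate 3, the library that also held the most globin transcripts. The median cosine amplitude of these 4 genes was 0.0572, below the 0.139 of all tested genes.

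Genes of haem and porphyrin transport and of ALAS1 turnover passed the time-point test in 5 of 13 tested cases, near the 39.8% of all genes. Clpx, the unfoldase that acts on mitochondrial ALAS1 protein, had the smallest p of the list, and ran from 115 ± 10.5 CPM at ZT15 to 189 ± 7.97 CPM at ZT21 (SD, n = 4), with an edgeR adjusted p of 1.71e-07 and a peak at ZT 1.0. It also kept a cosine beside lane (edgeR, adjusted p = 0.00203). Slc25a38, the mitochondrial glycine carrier that feeds ALAS, ran from 13.9 ± 0.662 CPM at ZT6 to 23.2 ± 2.45 CPM at ZT15 (edgeR, adjusted p = 3.11e-05), and passed beside lane as well (0.000244). Abcg2, a porphyrin exporter, and Slc48a1, a haem transporter, passed the time-point test (edgeR, adjusted p = 0.00268 and 0.0135), and Abcb10 was just inside the threshold (0.0494). The cosines of Abcg2 and Slc48a1 peaked at ZT 15.2 and ZT 11.8 (edgeR, adjusted p = 0.00426 and 0.0213) and were lost beside lane (0.130 and 0.927). Flvcr1, a haem exporter, had means up to 1.98-fold apart that did not pass (edgeR, adjusted p = 0.105). Flvcr2 was too low to be tested.

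Of the 3 genes that attach haem to cytochrome c or convert it to haem a, Cox10 and Hccs passed the time-point test (edgeR, adjusted p = 0.0327 and 0.00317) and Cox15 did not (0.154). All 3 had their lowest mean at ZT6. Among iron supply and iron-sulfur genes 9 of 15 passed the time-point test, against 39.8% of all tested genes, and 4 of 15 kept a cosine beside lane, against 17.2%. Their median cosine amplitude was 0.128, beside 0.139 over all genes. Tfrc, the transferrin receptor, had the widest range of this list, from 49.2 ± 14.6 CPM at ZT0 to 266 ± 55.0 CPM at ZT21 (edgeR, adjusted p = 0.00277), time points on different lanes, without a 24 h cosine (0.915). Slc11a2 and Steap3, which move and reduce endosomal iron, peaked at ZT 14.9 and ZT 15.5 and kept a cosine beside lane (edgeR, adjusted p = 0.0458 and 0.0180). Slc25a28, a mitochondrial iron carrier, passed the time-point test (edgeR, adjusted p = 0.00389), with a cosine peak at ZT 3.6 that was lost beside lane (0.114). Ftl1, the ferritin light chain, passed too (0.0183), with a peak at ZT 9.4 that was lost beside lane (0.707), while the heavy chain Fth1 did not pass the time-point test (0.607; edgeR, adjusted p).

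Regulators known to act on Alas1 or Hmox1 passed the time-point test in 10 of 14 cases, against 39.8% of all tested genes, and passed the cosine beside lane in 8 of 14, against 17.2%. This list holds the clock genes Nr1d1, Npas2 and Per2, with cosine amplitudes of 1.96 ± 0.10, 2.54 ± 0.14 and 1.72 ± 0.13 on the log2 scale. Nr1d1, whose protein REV-ERBα represses Alas1, had its highest mean, 223 ± 24.1 CPM at ZT6, and its lowest, 19.1 ± 3.43 CPM at ZT21, 11.7-fold apart. Nrf1, whose protein binds the core printed above, ran from 10.9 ± 0.792 CPM at ZT6 to 15.8 ± 1.44 CPM at ZT15 and peaked at ZT 16.5 (edgeR, adjusted p = 0.000130). Nfe2l2, which encodes NRF2, an inducer of Hmox1, ran from 64.3 ± 6.78 CPM at ZT3 to 134 ± 25.1 CPM at ZT15 with a peak at ZT 15.5 (8.01e-06), and its partner Mafg peaked at ZT 15.7 (5.79e-06). Bach1, the haem-sensing repressor of Hmox1, ranged 1.30-fold between time points (0.00650) without a cosine (0.235; edgeR). Ppargc1a, the coactivator known to induce Alas1, did not pass between time points (edgeR, adjusted p = 0.105), with a highest mean of 59.5 ± 28.9 CPM at ZT6, or in the cosine test (0.0985), but passed the cosine beside lane (0.0218). Of 6 tested targets of NRF2 other than Hmox1, 2 passed the time-point test, against 39.8% of all genes, namely Gclc and Txnrd1 (edgeR, adjusted p = 0.0498 and 0.00204). Nqo1, Gclm, Srxn1 and G6pdx did not, although Nqo1 passed the cosine test (edgeR, adjusted p = 0.0401) and the exact test of JTK (P = 0.0344).

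**Figure D4:**
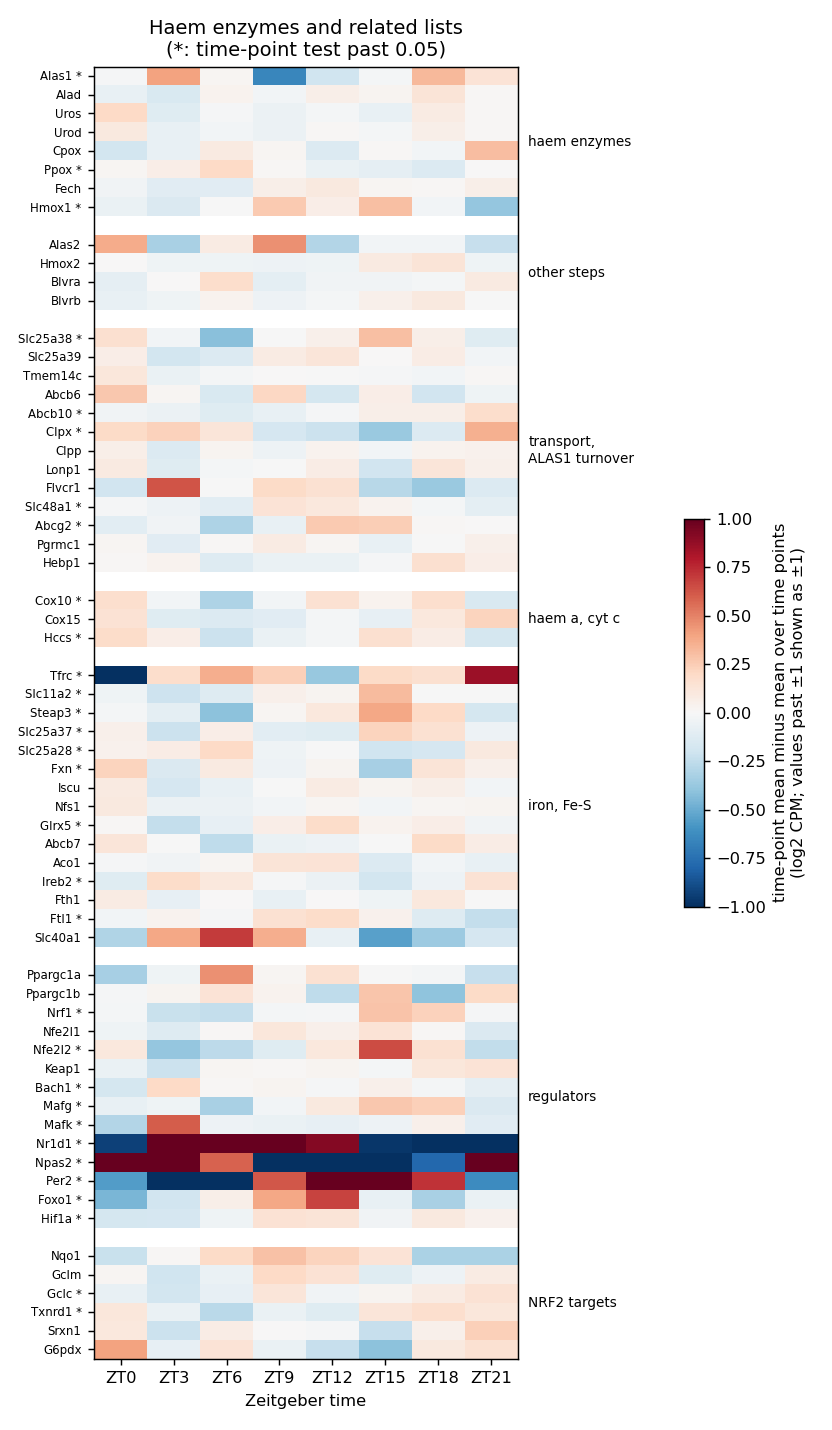
Time-point means of the 8 enzymes and the related lists in log2 CPM, relative to the mean over the 8 time points, with red above and blue below it, values past ±1 drawn as ±1, and a star where the time-point test passed an edgeR adjusted p of 0.05. The enzyme rows are pale except Alas1 at ZT3, ZT9 and ZT18, Cpox and Hmox1 at ZT21 and Hmox1 at ZT9 and ZT15, while Nr1d1, Npas2 and Per2 swing past the scale.

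Mouse-to-mouse variation was described by the deviations of log2 CPM from the time-point means. Among the 28 pairs of members r of these deviations ran from -0.72 to 0.74 over 32 libraries, which share depth and scaling. The 5 pairs above 0.5 were Uros with Urod (0.74), Urod with Fech (0.67), Alad with Urod (0.58), Alad with Fech (0.51) and Uros with Fech (0.51). Ppox went the other way from Fech (-0.72) and Urod (-0.66), and Alas1 from Urod (-0.64) and Uros (-0.56). All 6 pairs among Alad, Uros, Urod and Fech had a positive r, and Alas1 had a negative r with each of these 4. The percentage of counts from mitochondrially encoded genes moved with these deviations. Its own deviations had r of -0.68 with Uros, -0.65 with Urod, -0.63 with Fech, -0.57 with Alad, -0.26 with Cpox, -0.11 with Hmox1, 0.25 with Alas1 and 0.53 with Ppox over the same 32 libraries. At ZT9, where the mice spread most in Alas1, it was 21.8%, 22.8%, 28.2% and 27.5% in replicates 1 to 4. In ZT15 replicate 1 it was 26.7%, against 22.8% to 23.3% in the other mice of that time. The part of the mitochondrial percentage in the pairs of members was not tested.

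The genes most like each enzyme over the 32 libraries were sought among 13448 others with a mean of at least 1 CPM. For Alas1 they were Trim45 (r = 0.76), Avpr1a (0.75), Ccdc167 (0.75), Cdh23 (0.75) and Gm10033 (0.74). For Hmox1 they were Eepd1 (0.73), Mapk12 (0.71), Akr1b3 (0.70), Degs1 (0.69) and Serpinb6a (0.68). Those of Urod were Gm12350 (0.89), Chchd2 (0.88) and Mpc2 (0.88), of which the last encodes a subunit of the mitochondrial pyruvate carrier, and those of Uros were Psph, Swi5 and Prrg2 (0.87 each). Alad was most like Mrpl2 (0.80), Hdhd3 (0.75) and Atp5d (0.74), where Mrpl2 is a mitochondrial ribosomal protein and Atp5d a subunit of ATP synthase. Fech was most like Vwa8 (0.86), Tulp4 (0.86) and Gm6768 (0.84), Cpox like Ssx2ip (0.74), Edem3 (0.70) and Zmat3 (0.68), and Ppox like Zfr2, Sema5a and Rab37 (0.77 each).

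Whether Alas1, Hmox1 and Fech varied between mice of 1 time point with the genes or cell types named for them was tested in 6 relations, each on deviations from time-point means with 100000 resamples within time points (two-sided permutation tests, Benjamini-Hochberg adjustment over the 6). None passed 0.05 after adjustment, and 2 had an unadjusted p under 0.05. With library size alone as the scaling these 2, Alas1 with Ucp1 and Hmox1 with the macrophage score, passed after adjustment (permutation p = 0.0287 each). Alas1 and Ucp1, the uncoupling protein of brown fat, came closest, with r = -0.551 (permutation p = 0.0125, adjusted 0.0752) and Spearman's rho = -0.589 (permutation p = 0.00372). Within lanes r was -0.864 in lane 2, -0.520 in lane 3 and -0.171 in lane 4, with exact permutation p of 0.0104, 0.142 and 0.781. Without the 2 libraries farthest from the median of Alas1, r was -0.635 (adjusted permutation p = 0.0331). It also passed without ZT9 replicate 1 (0.0120), ZT9 replicate 2 (0.0389), ZT12 replicate 1 (0.0434) or ZT21 replicate 2 (0.0377).

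Hmox1 and the macrophage score, the mean log2 CPM of 6 markers, had r = 0.461 (permutation p = 0.0411, adjusted 0.123) and rho = 0.561 (permutation p = 0.00276). Within lanes 2, 3 and 4 r was 0.363, 0.477 and 0.823, with exact permutation p of 0.333, 0.200 and 0.0365. Without the 2 libraries farthest from the median of Hmox1, r was 0.388 (permutation p = 0.186, adjusted 0.559) and rho was 0.469 (permutation p = 0.0203). Without ZT9 replicate 1 r was 0.540 (adjusted permutation p = 0.0130). Of the 6 macrophage markers Adgre1, Cd163 and Mrc1 passed the time-point test, and the summed level of the 6 ran from 49.2 to 89.3 CPM at ZT21 and from 56.1 to 248 CPM at ZT9, the pair of time points in which Hmox1 was called. No defining macrophage marker was at 0 in any library. The part of macrophages in the Hmox1 difference was not tested. For Alas1 with Ppargc1a r was 0.00153 (permutation p = 0.995, rho = 0.0169 with permutation p = 0.938), and within lanes -0.373, 0.490 and -0.240 (exact permutation p = 0.512, 0.203 and 0.425). For Alas1 with Hmox1 r was -0.148 (permutation p = 0.550, rho = -0.0733 with permutation p = 0.738), and within lanes 0.156, -0.362 and 0.122 (exact permutation p = 0.699, 0.326 and 0.828). With the globin score r was 0.0584 for Hmox1 (permutation p = 0.791, rho = 0.155 with permutation p = 0.454) and 0.00811 for Fech (permutation p = 0.973, rho = 0.0436 with permutation p = 0.835). Within lanes these were 0.401, -0.198 and -0.167 for Hmox1 (exact permutation p = 0.208, 0.599 and 0.773) and -0.0415, -0.0217 and 0.326 for Fech (exact permutation p = 0.899, 0.961 and 0.484).

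**Figure D5:**
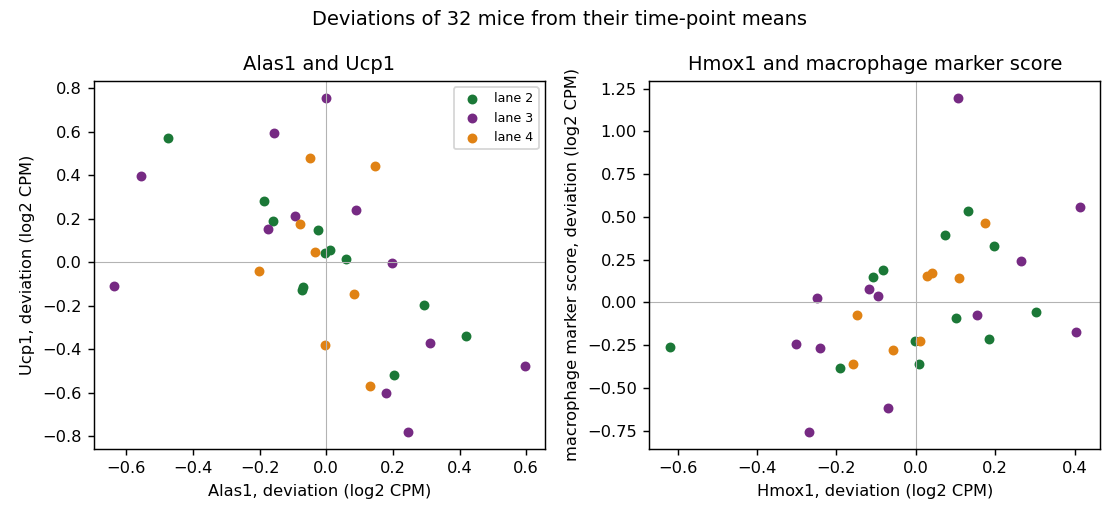
Deviations of the 32 mice from their time-point means in log2 CPM, coloured by lane, for Alas1 against Ucp1 on the left and for Hmox1 against the macrophage marker score on the right. The left cloud slopes down (r = -0.551) and the right cloud slopes up (r = 0.461), and neither passes 0.05 after adjustment over 6 relations.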

How the data were processed

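The authors mapped the reads with GSNAP to the mouse genome mm10, counted them per Ensembl gene with HTSeq (0.6.1) and deposited the raw counts, the unit used here. Whether counting used the strand is not given in the sources used here. Of 50686 genes, 20100 had no count. Filtering by filterByExpr of edgeR (4.0.16, R 4.3.3) left 15505 genes with 99.9% of counts, scaled by TMM. edgeR's quasi-likelihood tests (Benjamini-Hochberg, 0.05) covered time points, a 24 h cosine alone and beside lane, single lanes and contrasts. JTK was an own implementation on CPM (templates of 21 and 24 h, 15 in all). Amplitudes, peaks and relations used log2 CPM (prior count 2). Levels per kb used GENCODE exon unions.

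The 8 members, gene lists and tests were chosen with earlier results of these data known. The motifs were chosen after the windows were seen. Genes named are the members, all or examples of the fixed lists, and, as most alike, the top 5 (Alas1, Hmox1) or 3 by Pearson's r. 1 further gene was left out of the lists and is not reported here. Each library is 1 mouse. The lowest mean chi-square per gene between libraries of a time point was 7.97, so none counted as a duplicate. The fits were tested on simulated data. Alternatives were size factors and the test of DESeq2 (1.42.0), library size alone, other filters, a replicate block and leaving out libraries.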

Additional observations from a re-analysis of the deposited data

Results flagged for a closer look

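In 4 of 64 sets of 4 mice, an enzyme by time point, 1 mouse stood apart from the other 3 beyond Dixon's critical value for 4 samples, where chance flags about 1 in 20. Alas1 in ZT0 replicate 4 was 613 CPM against 403 to 436 CPM, and Urod in the same library was 59.7 CPM against 75.03 to 76.55 CPM. In ZT15 replicate 1 Urod was 54.9 CPM against 68.5 to 70.9 CPM and Fech 101 CPM against 130 to 133 CPM. ZT15 replicate 1 also held the most Acta1 of its time point, 1218 CPM, and the least Ucp1, 1134 CPM, and ZT0 replicate 4 held 477 CPM of Acta1.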

How the results depend on the processing

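Counts are of the 8 members unless said. Leaving out 1 library at a time gave 2 to 5 members in the time-point test, 2 to 5 in the cosine test and 1 to 5 in contrasts 12 h apart, each with 5 only without ZT15 replicate 1 and the last with 1 without ZT9 replicate 1. It gave 0 to 1 for the cosine beside lane (1 without ZT15 replicate 1), 0 to 3 within lanes and 0 to 1 in steps within lanes. By JTK it gave 1 to 4, with 1 without ZT3 replicate 1, 3 or 4 or ZT15 replicate 2 or 3, and 4 without ZT0 replicate 2 or 3 or ZT12 replicate 3. Within lanes 0 passed without ZT0 replicate 1, 2 or 3, ZT3 replicate 2 or 4 or ZT6 replicate 3, and 3 without ZT0 replicate 4. BH adjustment left 1 by JTK. Within lanes 0 passed with library size alone, no filter or the replicate block, and in steps within lanes 0 passed with DESeq2 size factors, library size alone, no filter, mitochondrially encoded genes left out or the libraries of a contrast alone. Leaving out the 7 libraries above 500 CPM of Acta1, chosen after seeing the data and leaving fewer mice, gave 1 between time points, 0 within lanes and 0 in steps. Over all genes that setting called 3861 of 15778 between time points and 651 within lane 2. With all libraries these were 6173 and 1963 of 15505. Numbers of replicates did not pair the mice: over 112 same-numbered pairs r of deviations had a median of -0.119, and 4 of 32 libraries were most like their own number. With the replicate block the counts were 3 between time points, 3 for the cosine and 3 by JTK, with Hmox1 added (exact test, P = 0.0308), while Uros was lost in lane 2 (edgeR, adjusted p = 0.0523). For the relations, r of Alas1 with Ppargc1a was -0.00398 with DESeq2 size factors, -0.0884 with the replicate block, -0.373 and -0.240 within lanes 2 and 4, -0.186 without the 2 farthest libraries and -0.0951 to 0.125 without 1 library. That of Alas1 with Ucp1 was -0.568 with library size alone (adjusted permutation p = 0.0287), -0.635 without the 2 farthest (0.0331) and -0.678 to -0.492 without 1 library. That of Alas1 with Hmox1 was 0.0338 with library size alone, 0.156 and 0.122 within lanes 2 and 4, 0.00660 without the 2 farthest and -0.278 to 0.0599 without 1 library. That of Hmox1 was 0.553 with the macrophage score under library size alone (adjusted permutation p = 0.0287) and 0.390 to 0.540 without 1 library, and with the globin score -0.198 and -0.167 within lanes 3 and 4 and -0.148 to 0.232 without 1 library. That of Fech with the globin score was -0.0375 with the replicate block, -0.0415 and -0.0217 within lanes 2 and 3, -0.226 without the 2 farthest and -0.196 to 0.213 without 1 library. The cause of these shifts was not tested. Library size alone moved the median gene by at most 0.045 on the log2 scale at any time point, in size. Hmox1 and Cpox, with the fewest counts, carry the largest counting error.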
